A study of Mus musculus with 12 samples.

Results

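The abundant small noncoding RNAs described here are 6 structured transcripts of the mouse, namely *Rn7s1*, *Rn7s6*, *Rn7sk*, *Rmrp*, *Rpph1* and *Terc*. They were selected by symbol through the Gencode mouse annotation, and they took up 8 of the 56065 rows of the count table, because *Rmrp* and *Terc* are each annotated as 2 genes at 1 locus whose rows were summed. All 6 symbols passed the low-count filter, among 17891 genes tested.

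The samples were submandibular glands (SMGs) of C57BL/6J wild-type (WT) mice and of C57BL/6J-*Pou2f3*-/- mice (Jackson Laboratory line C57BL/6J-*Pou2f3em1Cbwi*/J) at 8 weeks of age. Females and males of both genotypes were taken, with 3 mice in each of the 4 groups and 1 library per mouse, so that n = 3 per group throughout. *Pou2f3* encodes the POU class transcription factor that tuft cells (TCs) require, and the knockout is a global one that removes TCs from every organ, so an effect that begins outside the gland cannot be told apart from one within it. Whole glands were sequenced as stranded total RNA after ribosomal RNA depletion, and in such bulk tissue fewer cells of a type and less RNA per cell cannot be told apart.

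Each of the 6 RNAs works inside a ribonucleoprotein. *Rn7s1* and *Rn7s6* encode 7SL RNA, the scaffold of the signal recognition particle (SRP) that brings ribosomes making secreted proteins to the endoplasmic reticulum, a route in heavy use in salivary acinar cells. *Rn7sk* encodes 7SK RNA, which holds the elongation kinase P-TEFb in an inactive complex. *Rpph1* is the RNA subunit of RNase P, which trims the 5′ end of transfer RNA precursors, and *Rmrp* is the related RNA of RNase MRP, which acts in ribosomal RNA processing. *Terc* is the template RNA of telomerase. *Terc* is made by RNA polymerase II and the others by RNA polymerase III. None of the RNA polymerase III products has a poly(A) tail, so a total RNA library can hold them where a poly(A)-selected library would not.

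The loci are given in GRCm39. *Rn7s1* lies at chr12:69206069-69206368 on the plus strand and *Rn7s6* at chr6:69493323-69493613 on the plus strand, both annotated as miscellaneous RNA. Of all 31-base words of *Rn7s1*, 53.0% also occur in *Rn7s6*, so a read from a shared stretch could be assigned to either row, and the split between the 2 rows is uncertain in a way that their sum is not. A further 300-base copy, *Rn7s2* at chr12:69407956-69408255 on the minus strand, is identical to *Rn7s1* and has no row of its own, so the row of *Rn7s1* stands for both. Annotated models of a lncRNA (*Gm59647*) and of 2 miRNAs (*Gm54587* and *Gm54588*) overlap *Rn7s1* on the same strand, and 1 miRNA model (*Gm54521*) overlaps *Rn7s6*.

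*Rmrp* lies at chr4:43492783-43493063 on the minus strand, with an exon of *Ccdc107* on the opposite strand. Its sequence is shown because it is the only member whose female comparison passed the test. Capitals mark the 271 bases that its ribozyme model shares with the longer lncRNA model.
Rmrp: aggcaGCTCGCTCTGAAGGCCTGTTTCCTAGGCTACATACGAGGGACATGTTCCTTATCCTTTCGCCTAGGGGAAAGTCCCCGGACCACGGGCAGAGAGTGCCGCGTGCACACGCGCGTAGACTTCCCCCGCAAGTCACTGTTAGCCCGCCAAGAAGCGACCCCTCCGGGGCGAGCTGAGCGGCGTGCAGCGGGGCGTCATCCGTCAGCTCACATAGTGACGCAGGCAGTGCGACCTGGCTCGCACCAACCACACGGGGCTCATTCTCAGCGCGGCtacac
*Rn7sk* lies at chr9:78082585-78082915 on the minus strand and overlaps no other annotated gene. Of the genes that share sequence with it, *Gm54754* holds 70.1% of its 31-base words and had at most 9006 counts in a library, and *Gm55636* holds 68.1% and had at most 694. *Rn7sk* itself had 199317 to 453278 counts.

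*Rpph1* lies at chr14:51044906-51045224 on the minus strand and overlaps untranslated exons of *Ccnb1ip1* on the same strand and of *Parp2* on the opposite strand. *Ccnb1ip1* holds 82.7% of its 31-base words but had at most 8.26 counts in any library. *Terc* lies at chr3:96321753-96322149 on the minus strand, and its second, miscellaneous RNA model reaches to base 96322175. The first 60 bases of *Terc* are shown for the telomere template, which is in capitals.
Terc: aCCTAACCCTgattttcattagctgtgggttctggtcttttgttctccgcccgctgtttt

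The promoter window of 250 bases before to 50 after each start was searched for the octamer ATGCAAAT on both strands. The octamer is the motif that POU factors are known to bind and is a known part of the distal element of several RNA polymerase III promoters. It was found 218 bases before the start of *Rmrp* and 100 bases before that of *Rpph1*, and its first 7 letters (ATGCAAA) were found 223 bases before *Rn7sk*. No match to either was found in the windows of *Rn7s1*, *Rn7s6* or *Terc*. Of 78287 windows of the same length, 2.30% held the octamer and 5.99% held the 7 letters. Windows of 30 bases around the matches are shown in the direction of transcription, with the match in capitals, on GRCm39 at chr4:43493263-43493292, chr14:51045306-51045335 and chr9:78083120-78083149, all on the minus strand.
Rmrp window: gtttaagcaatATTTGCATaaaccacgccc
Rpph1 window: gggtagagcgcATGCAAATtacgcgctgtg
Rn7sk window: aactgttgtatTTTGCATagccccaaagca
These matches are a description of the letters and not of binding.

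The libraries held 47032175 to 67882207 estimated counts, and a count of 0 in a library allowed a level of up to 0.0442 to 0.0638 counts per 1000000 (CPM). Counts of *Pou2f3* were 1, 0 and 2 in WT females, 0 in all 3 knockout females, 1, 10 and 0 in WT males and 0, 3 and 1 in knockout males, too few for the transcript to check the labels in either sex. Of the 8 TC markers, *Gnat3* and *Il25* had 0 counts in every library, *Trpm5* had at most 4, and the summed level of all 8 was 17.1 to 20.7 CPM in WT females, 19.96 to 23.3 CPM in knockout females, 8.77 to 10.52 CPM in WT males and 9.502 to 12.5 CPM in knockout males. That sum rests mostly on *Dclk1*, with 477 to 1198 counts, so it is not read as a level of TCs. The limit for a count of 0 is on unscaled library totals, while the other CPM here and below are on library sizes scaled by the trimmed mean of M values (TMM). Knockout female 3 and WT male 3 stood apart, with 4902 and 7393 CPM of the 2 sublingual acinar markers *Muc19* and *Galnt13* against 1.83 to 174 CPM in the other 10 libraries. That sum is nearly all *Muc19*, at 111 to 518166 counts, since *Galnt13* had 0 to 4, so it is not read as a level of sublingual tissue. The sums of the 2 submandibular lists were high in every library, and both moved with sex. The 8 acinar markers summed to 41854 to 46548 CPM in WT females and 9890 to 15144 CPM in WT males, and the 6 convoluted tubule markers to 4329 to 8177 and 45720 to 80420 CPM. The acinar sum rests mostly on *Prol1*, at 412582 to 2028833 counts, so it is not read as a level of acinar cells. The tubule list held *Egf* at 17502 to 4374639 counts. All 14 markers were detected. WT females and WT males also did not overlap in the sums of 6 duct markers (246 to 313 against 449 to 463 CPM), 6 myoepithelial markers (128 to 172 against 353 to 427 CPM), 6 adipocyte markers (4.05 to 83.3 against 1.67 to 1.94 CPM) and 6 macrophage markers (72.5 to 165 against 59.4 to 69.7 CPM), nor in the mitochondrial share of the library (0.875 to 1.04% against 1.11 to 1.35%). The 5 blood markers were at 1.81 to 3.47 against 1.45 to 1.73 CPM and the 7 B and T lymphocyte markers at 0.548 to 0.718 against 0.357 to 0.483 CPM. The lncRNA share was 0.457 to 0.869% against 1.11 to 1.92%. Genes annotated as TEC took 0.0591 to 0.129% against 0.134 to 0.287%, and 20774 to 22505 against 23073 to 24044 genes were detected. The part of these in the sex differences below was not tested.

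The 6 RNAs together took 40.3%, 39.2% and 32.5% of the counts in WT females, 41.8%, 45.4% and 38.8% in knockout females, 19.0%, 24.2% and 12.7% in WT males and 23.6%, 30.6% and 31.7% in knockout males. Protein-coding genes took a share that went the other way, at 57.6 to 65.5%, 52.1 to 56.2%, 73.3 to 77.4% and 64.9 to 73.3% in the same groups. Because a few transcripts fill so much of each library, the choice of what to scale by carries more weight than usual. Levels are therefore given, member by member, as a share of the library, per 1000000 protein-coding counts or in TMM-scaled CPM. The fold changes are on TMM unless stated. On TMM the median log2 fold change over all genes was 0.03 in the female comparison, −0.04 in the male comparison, 0.03 in the interaction and 0.06 between WT males and WT females. On protein-coding counts the same medians were 0.67, 0.00, 0.63 and 0.62, so a member is read against them.

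**Figure D1:**
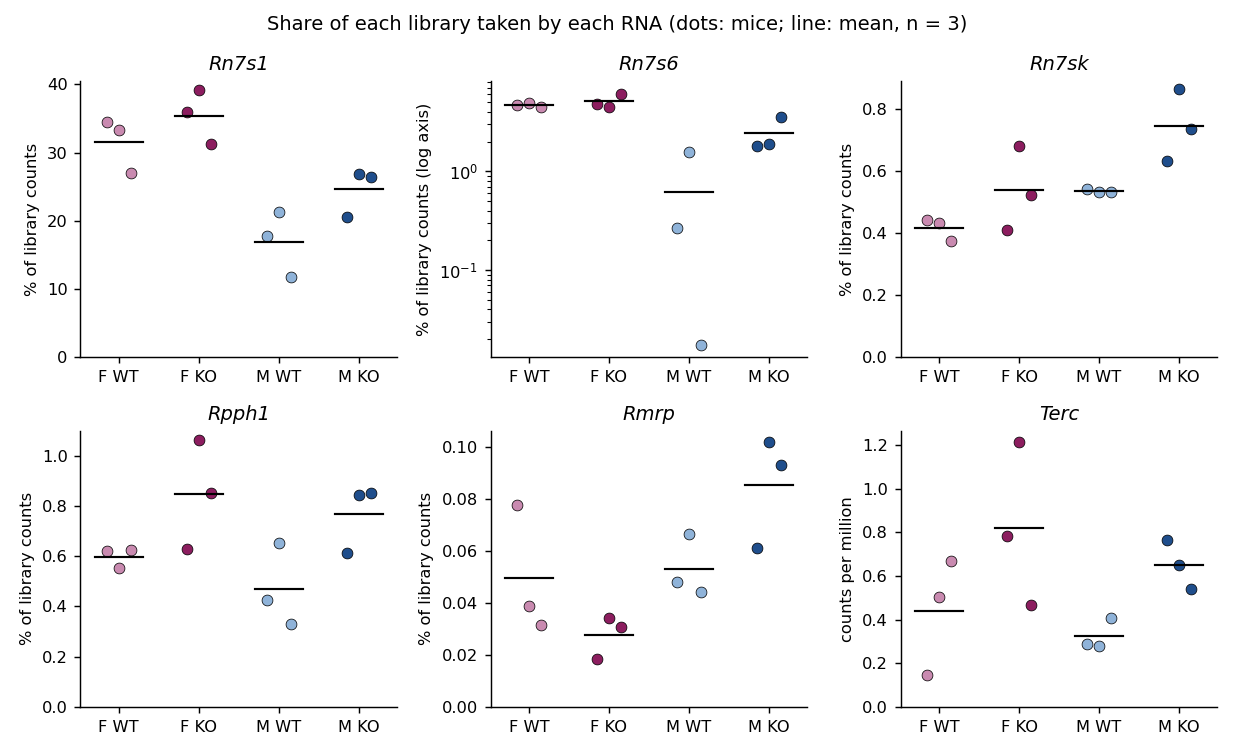
Share of the library taken by each of the 6 RNAs in the 12 SMG libraries, in percent of counts (counts per 1000000 for *Terc*), with 1 point per mouse and a line at the mean of each group. The axis of *Rn7s6* is a log10 axis and the others start at 0. *Rn7s1* lies between 11.8% and 39.1%, and *Rn7s6* falls to 0.0175% in 1 WT male.

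*Rn7s1* was the largest single transcript or the next after it in every library. Per 1000000 protein-coding counts it was at 598562, 568539 and 411512 in WT females, at 653000, 750774 and 556182 in knockout females, at 229222, 291355 and 155457 in WT males and at 279890, 414817 and 407250 in knockout males. All 3 WT males lay below all 3 WT females, and the genotypes overlapped within each sex. Counting error was at most 0.0745% of any value, far less than the spread between mice, which in WT males was a SD of 30.2% of the mean. The difference of WT males from WT females was −1.73 on the log2 scale (SE 0.30; 95% interval −2.37 to −1.08; adjusted p = 0.0006, edgeR quasi-likelihood test with Benjamini-Hochberg adjustment). It was −0.90 on total counts and −1.22 on protein-coding counts, and passed on both (adjusted p of 0.0012 and 0.0009), but turned to 1.89 with the factors of the deposited normalized table and did not pass (adjusted p = 0.0554). The groups did not overlap per 1000000 protein-coding counts, where 4.68% of all genes were lower in every WT male. In this comparison of the sexes 36.4% of all genes passed, 16.0% in the lower direction, and 3 of the 6 members passed, all lower in males. In the lower direction 1.64% of genes passed on total counts and 3.52% on protein-coding counts, with *Rn7s1* and *Rn7s6* among them on both.

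The genotype differences of *Rn7s1* did not pass. In females the value was −0.33 (95% interval −0.95 to 0.30; adjusted p = 0.406), with the sign turned to 0.17 on total counts and 0.31 on protein-coding counts. In males it was 0.60 (−0.02 to 1.23; adjusted p = 0.460). The interaction of genotype and sex was −0.93 (−1.82 to −0.04; adjusted p = 0.108). With the factors of the deposited normalized table the signs of the female, male and interaction values all turned. DESeq2 called the interaction, with its sign kept.

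*Rn7s6* was the member that varied most between mice. Its share of the library was 4.69%, 4.87% and 4.52% in WT females and 4.81%, 4.46% and 6.12% in knockout females, so that females of both genotypes lay close together. In WT males it was 0.268%, 1.57% and 0.0175%, and in knockout males 1.82%, 1.90% and 3.57%. The 3 WT males were thus far apart, and all lay below every knockout male and every female. Of all genes, 2.26% took a lower share in every WT male than in every WT female. The lowest WT male is WT male 3, the library with 7393 CPM of the sublingual acinar markers, nearly all *Muc19*. Whether sublingual tissue was present, and its part in the value, was not tested. The other library high in *Muc19*, knockout female 3, had the highest share of *Rn7s6* of all 12.

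WT males were lower than WT females in *Rn7s6* by a log2 value of −3.58 (SE 1.06; −5.88 to −1.29; adjusted p = 0.0183, edgeR). The call was lost, at a smaller difference, with the factors of the deposited normalized table, and DESeq2 gave *Rn7s6* no adjusted p. On TMM the value was −3.01 without WT male 3 (adjusted p = 0.0070), −3.16 without WT male 1 (adjusted p = 0.0699, past the threshold no longer) and −6.12 without WT male 2 (adjusted p = 0.0005). In the male comparison of genotypes the knockout was higher by a log2 value of 1.88 (−0.26 to 4.02; adjusted p = 0.506), which did not pass although the shares of the 2 groups did not overlap. Without WT male 2 it was 4.41 (adjusted p = 0.103), the highest of the 12 fits with 1 mouse left out. The lowest was 1.30, and none passed, with adjusted p up to 0.890 (edgeR). Of all genes, 3.82% had a higher share in every knockout male than in every WT male, and the members that did so were *Rn7s6*, *Rn7sk* and *Terc*. In females the value was −0.38 (−2.46 to 1.70; adjusted p = 0.791).

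The ratio of the 2 forms of 7SL does not depend on any scaling between libraries. *Rn7s6* came to 14.99% ± 1.62 of *Rn7s1* (SD, n = 3) in WT females, 14.8% ± 4.26 in knockout females, 3.01% ± 3.83 in WT males and 9.81% ± 3.35 in knockout males. WT males lay between 0.148% and 7.36%, below every WT female. The log2 difference between the sexes was −3.66 (exact two-sided permutation test, p = 0.1, the smallest that 3 mice against 3 can give), and that between the male genotypes was 3.00 (exact permutation test, p = 0.2). Since the 2 RNAs share more than 50% of their 31-base words, this ratio also holds whatever error the assignment of shared reads brings, which was not tested.

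*Rn7sk* took nearly the same share of the library in all 3 WT males, with a SD of 1.18% of the mean. Per 1000000 protein-coding counts it was at 7672, 7396 and 5731 in WT females and 7033, 7295 and 7005 in WT males, and at 7476, 13050 and 9316 in knockout females and 8613, 13348 and 11363 in knockout males. Every knockout male lay above every WT male on this scale, as 8.51% of all genes did. The fold change in males was 0.57 (0.07 to 1.07; unadjusted p = 0.0289; adjusted p = 0.360, edgeR), which did not pass over all genes. In females it was −0.11 (−0.62 to 0.39; adjusted p = 0.735) on TMM and 0.52 (adjusted p = 0.0564) on protein-coding counts, so that even the direction rests on the scaling. Between WT males and females it was −0.50 (−1.01 to 0.00; adjusted p = 0.107), and 0.04 on protein-coding counts. Set against *Rn7sk* in the same library, *Rn7s1* came to 75.6 ± 3.31 counts per count of *Rn7sk* in WT females (SD, n = 3), 68.2 ± 16.6 in knockout females, 31.6 ± 8.92 in WT males and 33.1 ± 2.45 in knockout males. The 6 females lay at 57.5 or above and the 6 males at 39.9 or below, with a log2 difference of −1.30 between the WT sexes (exact two-sided permutation test, p = 0.1, the smallest possible).

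*Rpph1* was at 10745, 9413 and 9512 per 1000000 protein-coding counts in WT females and at 11391, 20372 and 15116 in knockout females. The females of the 2 genotypes did not overlap on this scale, with every knockout higher, but 59.4% of all genes were higher without overlap in the same way, so nothing is read from it. In males the values were 5522, 8912 and 4318 in WT and 8347, 12970 and 13138 in knockouts, and here the groups overlapped. The female difference was 0.01 (−0.72 to 0.74; adjusted p = 0.986, edgeR) on TMM and 0.66 (adjusted p = 0.0593) on protein-coding counts, where the median gene was at 0.67. The male difference was 0.76 (0.03 to 1.49; unadjusted p = 0.0436; adjusted p = 0.415). WT males were lower than WT females by −1.17 (SE 0.34; −1.91 to −0.43; adjusted p = 0.0172), but this call was lost on protein-coding counts (−0.66; adjusted p = 0.0583), on total counts (−0.35; adjusted p = 0.218), without WT male 1 (−1.003; adjusted p = 0.0743) and without WT male 3 (−0.92; adjusted p = 0.0725).

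**Figure D2:**
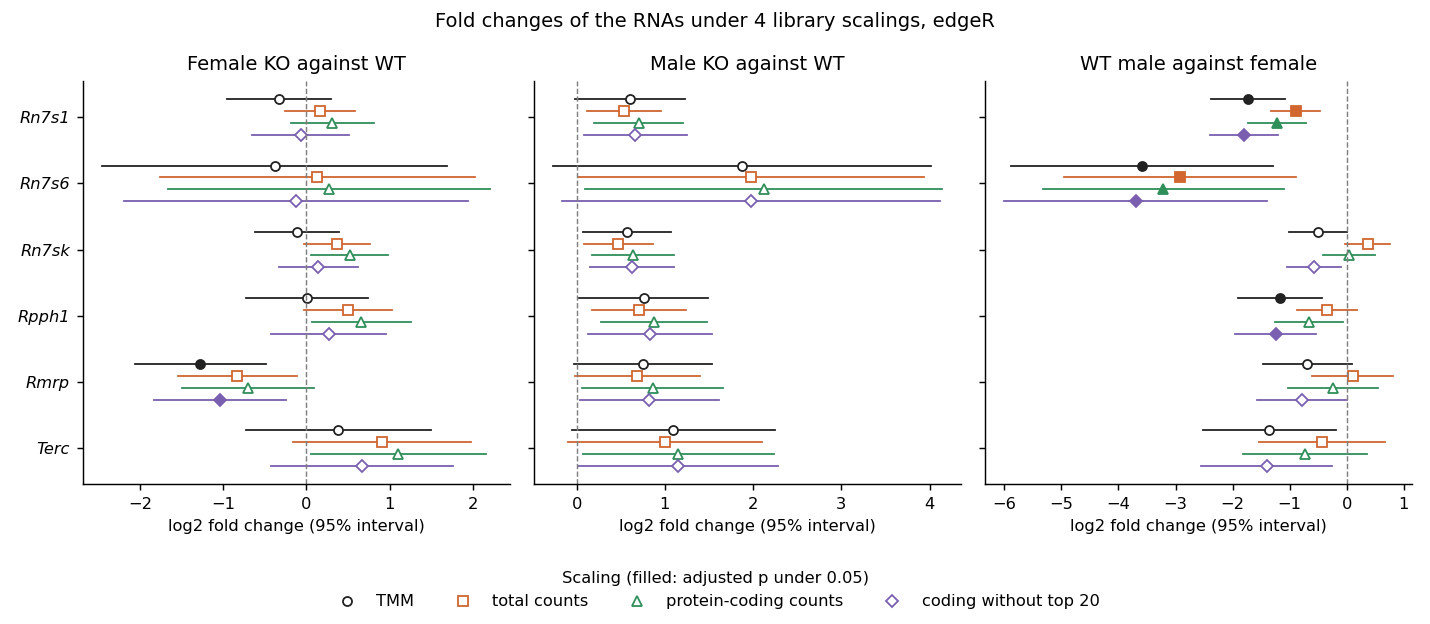
Log2 fold changes of the 6 RNAs in the female and male knockout comparisons and between WT males and WT females, under 4 scalings of the libraries (TMM, total counts, protein-coding counts, and protein-coding counts without the 20 most abundant genes), with bars for the 95% intervals and filled points where the adjusted p is under 0.05. The female value of *Rmrp* stays below 0 in these 4, while those of *Rn7s1*, *Rn7s6* and *Rn7sk* cross 0 with the scaling.

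*Rmrp* was the only member whose genotype difference passed the test, and it did so in females and in the interaction. In TMM-scaled CPM it was at 1024, 570 and 504 in WT females and at 177, 379 and 310 in knockout females, so that every knockout lay below every WT, as 24.1% of all genes did on this scale. In males the order was the other way, with 332, 640 and 326 CPM in WT and 490, 865 and 837 CPM in knockouts, and the ranges overlapped. On the share of the library the female groups overlapped, at 0.0777%, 0.0388% and 0.0315% in WT against 0.0183%, 0.0342% and 0.0307% in knockouts. WT female 1 was well above the other 2 WT females and knockout female 1 well below the other 2 knockouts on both scales.

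In females *Rmrp* fell in the knockout by 1.28 on the log2 scale (SE 0.36; 95% interval −2.06 to −0.49; adjusted p = 0.0156, edgeR), 1 of 6 members called where 37.0% of all genes were called and 19.3% were called lower. The fall was smaller on total counts (−0.83; adjusted p = 0.0598) and on protein-coding counts (−0.70 beside 0.67 for the median gene; adjusted p = 0.124), and did not pass on either. On those scalings 2.01% and 0.894% of all genes were called lower. It passed on protein-coding counts without the 20 most abundant genes (−1.04; adjusted p = 0.0410). It also missed the threshold without WT female 1 (−0.96; adjusted p = 0.050001) and without knockout female 1 (−1.06; adjusted p = 0.0558). Without knockout female 3, the library with 4902 CPM of the sublingual markers, nearly all *Muc19*, it was −1.37 (adjusted p = 0.0347). The summed level of the 8 acinar markers, mostly *Prol1*, moved with the groups, from 41854 to 46548 CPM in WT females to 26225 to 32667 CPM in knockout females. The myoepithelial markers likewise went from 128 to 172 CPM to 101 to 116 CPM. The lncRNA share of the library was 0.457 to 0.869% in WT and 1.25 to 1.46% in knockout females, that of the genes annotated as TEC 0.0591 to 0.129% and 0.197 to 0.243%, and 20774 to 22505 and 22932 to 23600 genes were detected. The 20 most abundant protein-coding genes took 35.6 to 45.8% of the counts in WT females and 28.9 to 30.6% in knockout females. The part of these in the value was not tested.

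In males *Rmrp* was higher in knockouts by 0.76 (SE 0.36; −0.02 to 1.54; adjusted p = 0.456), which did not pass, where 0.235% of all genes were called and none of the 6 members was. The difference between the sexes in the effect of genotype was tested directly. The interaction was −2.03 (SE 0.51; −3.14 to −0.92; adjusted p = 0.0148), 1 of 6 members called where 25.7% of all genes were called and 12.4% were called lower. It stayed past the threshold on total counts (−1.52; adjusted p = 0.0262), on protein-coding counts (−1.56; adjusted p = 0.0371), where 0.721% and 0.671% of all genes were called lower, and in each of the 12 fits with 1 mouse left out, where it ran from −2.43 to −1.75 with adjusted p from 0.0049 to 0.0453. WT males and WT females did not differ by the test (−0.69; −1.47 to 0.09; adjusted p = 0.151). The interactions of all 6 members were negative on TMM, with a median of −0.84 against 0.03 for all genes. Their negative direction is therefore not particular to *Rmrp*.

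The 2 annotated rows of *Rmrp* split unevenly. The ribozyme row held 30.96 to 49.9% of the locus in 10 libraries, but 8.04% in knockout female 1 and 0% in knockout male 1. The models share 271 bases, so the split tells little about the RNA and their sum was used.

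*Rmrp* and *Rpph1* are relatives that share most of their protein subunits, and their ratio within a library is free of library scaling. *Rmrp* came to 0.0822 ± 0.0389 counts per count of *Rpph1* in WT females (SD, n = 3), 0.0325 ± 0.0035 in knockout females, 0.116 ± 0.0170 in WT males and 0.110 ± 0.0106 in knockout males. The knockout females lay between 0.0292 and 0.0362, below each of the other 9 libraries, of which the lowest was at 0.0506. Against *Rn7sk* the picture was alike, with 0.116 ± 0.0516 in WT females, 0.0512 ± 0.0071 in knockout females, 0.0986 ± 0.0222 in WT males and 0.113 ± 0.0150 in knockout males, and the 3 knockout females were again the lowest of the 12. The log2 differences between the female genotypes were −1.24 and −1.11 (exact two-sided permutation test, p = 0.1 each, the smallest possible). Those between the male genotypes were −0.08 and 0.22 (exact permutation test, p = 0.6 and p = 0.3). Of the 18 such comparisons made over 6 ratios none could pass a threshold of 0.05.

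**Figure D3:**
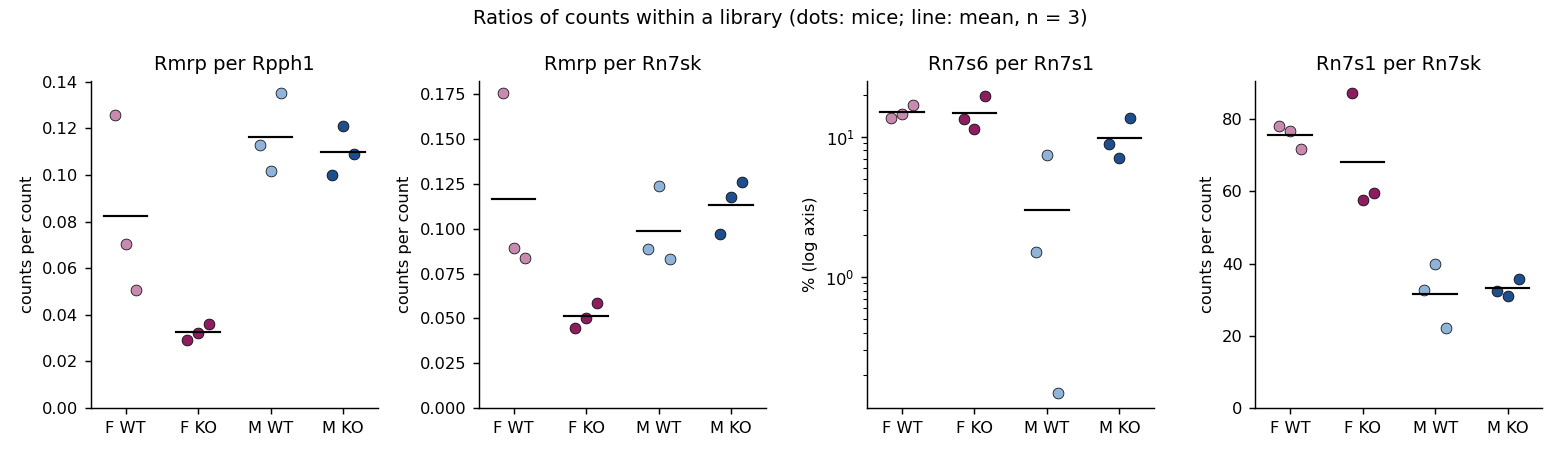
Ratios of counts between members within each library, which need no scaling between libraries, with 1 point per mouse and a line at the group mean. The ratio of *Rn7s6* to *Rn7s1* is in percent on a log10 axis and the others are counts per count from 0. The 3 knockout females have the lowest *Rmrp* per *Rpph1*, at 0.0292 to 0.0362, and the WT males have the lowest mean of *Rn7s6* per *Rn7s1*, though WT male 2 lies above 1 knockout male.

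*Terc* was not an abundant RNA in these glands. It had 10, 33 and 41 counts in WT females, 38, 80 and 22 in knockout females, 15, 19 and 21 in WT males and 38, 34 and 31 in knockout males. Counting error alone was 22.0 to 64.9% of each value. All 3 knockout males lay above all 3 WT males, at 0.613, 0.551 and 0.487 CPM as ordered from the highest against at most 0.300 CPM, as did 6.50% of all genes in CPM. The male difference was 1.098 (−0.06 to 2.25; adjusted p = 0.468, edgeR) and did not pass. The female difference was 0.39 (−0.72 to 1.497; adjusted p = 0.588) and that between WT males and females −1.36 (−2.53 to −0.19; adjusted p = 0.0657). The counts of a library fell wholly in 1 of the 2 annotated rows, the second in WT female 3, WT male 1 and WT male 2 and the first in the other 9.

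Levels of different RNAs can be compared only per length. Per kilobase and per 1000000 protein-coding counts, WT females had 1754015 ± 334848 of *Rn7s1* (mean ± SD), 267350 ± 26419 of *Rn7s6*, 31004 ± 2326 of *Rpph1*, 20945 ± 3173 of *Rn7sk*, 2957 ± 1631 of *Rmrp* and 1.79 ± 1.02 of *Terc*. In WT males the order of *Rpph1* (19595 ± 7467), *Rn7sk* (21483 ± 484) and *Rn7s6* (28792 ± 39258) was within the spread of the mice. The order of the other 3 was the same in all 4 groups. By raw counts among all genes, *Rn7s1* ranked 1 to 2 over the libraries, *Rn7s6* 3 to 350, *Rpph1* 6 to 25, *Rn7sk* 11 to 19, *Rmrp* 26 to 138 and *Terc* 12155 to 16385.

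In the male comparison all 6 members had a positive fold change on every scaling tried but the authors' own, where 5 of 6 did. On protein-coding counts they ran from 0.64 (*Rn7sk*) to 2.12 (*Rn7s6*), with a median of 0.87 against 0.00 for the median gene, and all 6 had an unadjusted p under 0.05, as 8.51% of all genes did, while none passed over all genes, as 0.0838% did. On TMM 2 of 6 had an unadjusted p under 0.05, where 11.5% of all genes did. The 6 values share the same libraries, so they are not 6 separate pieces of evidence. Other measures separated the male genotypes without overlap. The mitochondrial share of the library was 1.11 to 1.35% in WT males and 0.723 to 0.804% in knockouts. The pseudogene share was 0.279 to 0.366% in WT males and 0.237 to 0.263% in knockouts. The 6 adipocyte markers summed to 1.67 to 1.94 CPM in WT and 3.95 to 61.9 CPM in knockouts, the 5 blood markers to 1.45 to 1.73 and 2.89 to 9.86 CPM, and the 6 macrophage markers to 59.4 to 69.7 and 71.8 to 122 CPM. All 17 of these markers had counts, though *Cidec* of adipocytes and the haemoglobin genes *Hba-a1*, *Hba-a2* and *Hbb-bt* were at 0 in at least 1 library. The part of these markers and shares in the male values was not tested. In females the median over the members was −0.22 on TMM and 0.42 on protein-coding counts.

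The deposited table of normalized values treated *Rn7s1* unlike any other gene. Dividing a gene's count by its normalized value gives the factor applied to it in each library, which would be the same for all genes of a library if 1 factor had been used for each. Relative to the median gene of the library, the log2 factor of *Rn7s1* was 0.28, 2.92 and 2.28 in WT females, 2.82, 0.28 and 0.92 in knockout females, −1.95, −1.68 and −3.35 in WT males and −0.64, −1.20 and −0.73 in knockout males. A positive value means that the count was divided by more than that of the median gene. Its range of 6.27 was the widest among the 14167 genes whose count reached 10 in all 12 libraries, for which the median range was 0.42. *Rn7s6* came next among the members with a range of 2.43, at 0.49 to 1.03 in the 6 females and −1.40 to −0.19 in the 6 males. *Rn7sk*, *Rmrp*, *Rpph1* and *Terc* had ranges of 0.32, 0.35, 0.33 and 0.19, close to those of ordinary genes.

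These factors turned the order of the sexes for *Rn7s1*. The normalized values averaged 10097744 ± 9753715 in WT females and 37530045 ± 11640990 in WT males (SD, n = 3), 3.72 times as high in males and without overlap, while the share of the library in WT males was 0.537 times that in WT females, also without overlap. With the factors as offsets the log2 difference was 1.89 (adjusted p = 0.0554), against −1.73 on TMM. In females the genotype difference of *Rmrp* was −1.48 with these factors (adjusted p = 0.0038) and −1.28 on TMM. How the factors were made is not given in the sources used here.

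**Figure D4:**
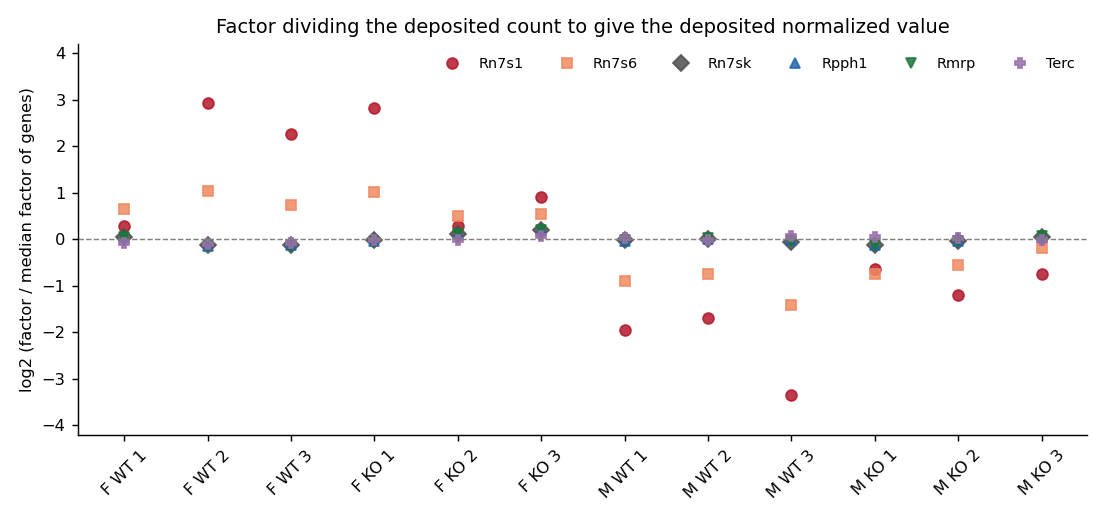
Log2 of the factor applied to each RNA in the deposited normalized table, relative to the median gene of the same library, with 1 point for each of the 12 libraries. *Rn7s1* spreads over 6.27, with all females above 0 and all males below, while *Rn7sk*, *Rmrp*, *Rpph1* and *Terc* stay near 0.

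The proteins that work with these RNAs were examined by lists, first in females, where 37.0% of all genes passed. In the same females the sum of the acinar markers, mostly *Prol1*, was 41854 to 46548 CPM in WT and 26225 to 32667 CPM in knockouts. The lncRNA share was 0.457 to 0.869% against 1.25 to 1.46%, with 20774 to 22505 against 22932 to 23600 genes detected. Myoepithelial markers, the TEC share and the share of the 20 most abundant protein-coding genes moved too, as given above. The part of these in the values of any list below was not tested. For RNase P and RNase MRP, 3 of 10 tested proteins were called lower and none higher, with a median of −0.27 against 0.03 for all genes on TMM. They were *Rpp14* (−0.86; adjusted p = 0.0006, edgeR), at 10.8 ± 0.559 CPM in WT and 5.94 ± 0.216 CPM in knockouts, *Pop5* (−0.68) and *Pop7* (−0.59). *Pop1*, the large subunit, was at 0.18 (adjusted p = 0.604). On protein-coding counts 3 of the 10 were called higher and none lower, while 51.1% of all genes were called higher, and the median was 0.39 against 0.67 for all genes. *Rpp25* was under the filter.

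Of 10 SRP proteins and receptor subunits, 9 were called lower on TMM, where 19.3% of all genes were, with a median of −0.71. The sum of the acinar markers, mostly *Prol1*, was also lower, at 41854 to 46548 CPM in WT females and 26225 to 32667 CPM in knockout females. Its part in the values was not tested. The genes called lower included *Srp54a* (−0.58; adjusted p = 0.0040), the GTPase that binds signal sequences, *Srp68* (−0.65) and the receptor subunits *Srpra* (−0.89) and *Srprb* (−0.88). On protein-coding counts 1 was called lower, where 0.894% of all genes were, and 1 higher, with a median of −0.05 against 0.67 for all genes. The RNA they bind, *Rn7s1*, was not called in females on any scaling.

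Of the 7 proteins of the 7SK complex and P-TEFb, *Ccnt2*, a cyclin of P-TEFb, was called higher (0.49; adjusted p = 0.0099) and none lower. In either direction 37.0% of all genes were called. *Larp7*, which binds the 3′ end of 7SK, was at −0.09 (adjusted p = 0.784) and the inhibitor *Hexim1* at −0.18 (adjusted p = 0.186). The median of the list was −0.09. On protein-coding counts 5 of the 7 were called higher, beside 51.1% of all genes, and none lower, with a median of 0.58, below the 0.67 of all genes.

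Of 7 telomerase and H/ACA proteins, 1 was called higher and 3 lower on TMM, where 37.0% of all genes were called and 19.3% lower. The one called higher was *Tert*, the reverse transcriptase (1.16; adjusted p = 0.0077), at 0.665 ± 0.131 CPM in WT females and 1.504 ± 0.455 CPM in knockouts on 20 to 90 counts. The ones called lower were the H/ACA proteins *Nop10* (−0.77), *Nhp2* (−0.62) and *Dkc1* (−0.59), which are also part of many small nucleolar ribonucleoproteins. On protein-coding counts 3 were called higher and none lower, with a median of 0.54, where 51.1% of all genes were called higher and their median was 0.67.

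Of 23 subunits and initiation factors of RNA polymerase III, 7 were called higher and 4 lower on TMM. Among all genes 37.0% were called and 19.3% were called lower. The part in these values of the markers and library measures that moved with the female groups was not tested. *Snapc4*, the largest subunit of the complex that binds the promoters of *Rn7sk*, *Rmrp* and *Rpph1*, rose by 1.42 (SE 0.20; adjusted p = 0.0004), from 4.49 ± 1.13 to 12.1 ± 2.06 CPM. *Brf1*, the initiation factor of the transfer RNA type of promoter, rose by 0.92 (adjusted p = 0.0003), and *Snapc3* by 0.72. The 4 called lower were the polymerase subunits *Polr3k* (−0.57), *Polr3f* (−0.30) and *Polr3c* (−0.33), and *Crcp* (−0.47), which is named here after its value was seen. On protein-coding counts 15 of the 23 were called higher, beside 51.1% of all genes, and none lower, with a median of 0.48. In males none of the 57 tested proteins of the 5 lists was called on TMM, total counts or protein-coding counts by edgeR or by DESeq2, and 2 had an unadjusted p under 0.05 on TMM, where 11.5% of all genes did. Of all genes, edgeR called 0.235% in males on TMM and 0.0838% on protein-coding counts. The lack of calls is therefore not read as a result about these proteins.

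**Figure D5:**
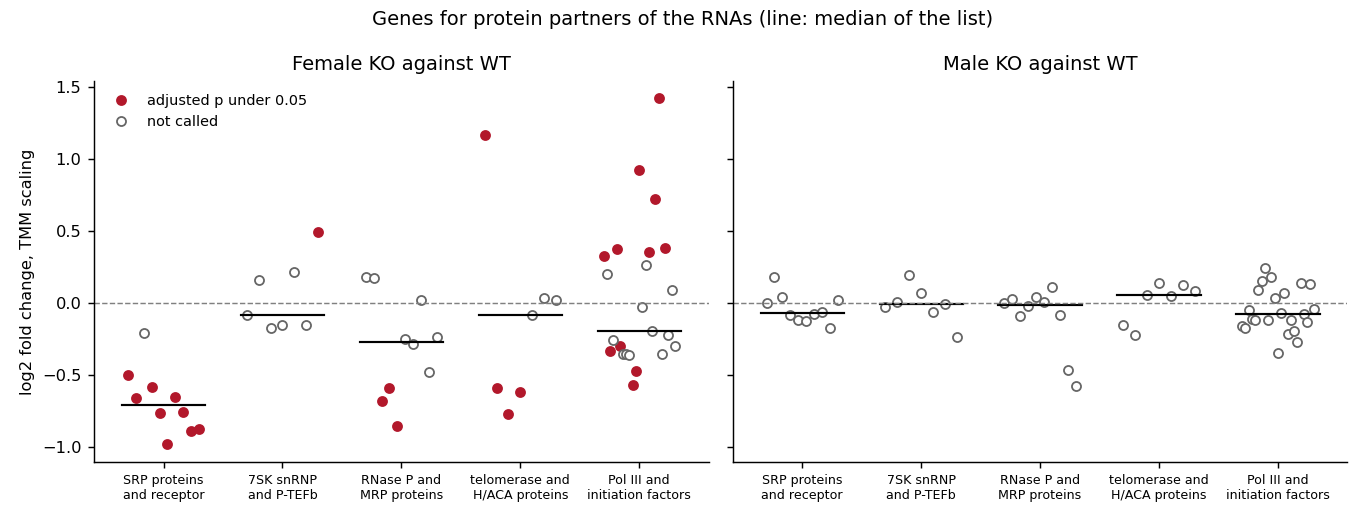
Log2 fold changes of the partner proteins of the 6 RNAs in the female and male knockout comparisons on TMM-scaled libraries, grouped by list, with filled points for genes called at an adjusted p under 0.05. In females 9 of 10 SRP genes and 3 of 10 RNase P and MRP genes are called lower, beside 19.3% of all genes. In males no gene of the lists is called, beside 0.235% of all genes.

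The lower level of *Rn7s1*, *Rn7s6* and *Rpph1* in WT males than in WT females was set beside the other small RNA classes of the same table. On TMM, where 16.0% of all genes were called lower, 19 of 38 small nucleolar RNAs were called lower in WT males and none higher (median −1.30), as were 5 of 9 small Cajal body RNAs (median −1.08), while 5 of 24 small nuclear RNAs were called lower and 1 higher (median −0.93). Of 20 miscellaneous RNAs other than the members, 5 were called lower and 2 higher (median −0.26). The most abundant genes of these classes included *Gm25395* (−2.09; adjusted p = 0.0039) and *Scarna2* (−1.08; adjusted p = 1.9e-05) of the Cajal bodies, *Scarna10* (−1.65; adjusted p = 0.0020), *Snord17* (−1.68; adjusted p = 0.0019) and the U1 gene *Rnu1a1* (−0.93; adjusted p = 0.0375). On protein-coding counts the medians of the first 3 classes were −0.83, −0.52 and −0.46, against 0.62 for all genes, with 8 of 38, 4 of 9 and 1 of 24 called lower, beside 3.52% of all genes, and 2, 0 and 1 called higher. The miscellaneous RNAs were at a median of 0.24 there, with 4 of 20 called lower and 5 higher. The part in these values of the marker lists and library measures that moved with sex was not tested. The medians of the members were −1.26 on TMM and −0.69 on protein-coding counts. In the male genotype comparison no gene of these classes was called by edgeR or DESeq2, and 9 of the 91 had an unadjusted p under 0.05 on TMM, where 11.5% of all genes did. Of all genes, edgeR called 0.235% in that comparison on TMM, so nothing is read from the lack of calls. In the female genotype comparison the medians were −0.20, 0.14, −0.34 and 0.12 for small nucleolar, Cajal body, small nuclear and miscellaneous RNAs, with 1, 0, 1 and 0 called lower and 0, 1, 0 and 3 called higher, where 37.0% of all genes were called. On protein-coding counts the medians were 0.42, 0.80, 0.31 and 0.75 against 0.67 for all genes, with none called lower and 1 of 38, 4 of 9, 0 of 24 and 6 of 20 called higher, beside 51.1% of all genes, so that the signs of the first and the third class turned with the scaling. Most small nucleolar RNAs lie in introns of other genes, so in total RNA their rows may also hold reads from unspliced host transcripts, which was not tested.

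How far the members varied together depended on whether the group means were taken out. In log2 TMM-scaled CPM Pearson's r was 0.92 for *Rn7s1* and *Rn7s6*, 0.91 for *Rn7s1* and *Rpph1*, 0.64 for *Rn7sk* and *Rmrp*, and 0.18 for *Rn7s1* and *Rmrp*. On the share of the library the last was −0.25. For deviations from the group means in log2 TMM-scaled CPM, *Rn7s1* and *Rmrp* were at 0.66, *Rn7s1* and *Rpph1* at 0.87, *Rn7sk* and *Rpph1* at 0.84, *Rn7sk* and *Rmrp* at 0.76, and *Rmrp* and *Rpph1* at 0.75. The lowest value among the 5 members other than *Terc* was 0.35, for *Rn7s6* and *Rn7sk*, and *Terc* was between −0.36 and 0.29 with each of them. These values are descriptions over libraries of 4 groups that share their scaling, so no p is given. By the rule of the highest r in log2 CPM over the 12 libraries, the genes most like *Rn7s1* were *Gm24514* (r = 0.99), *Tank* (0.97) and *Scarna10* (0.96), those most like *Rmrp* were *Trappc2* (0.95), *Tmem119* (0.94) and *Gng10* (0.93), and those most like *Rpph1* were the small Cajal body RNAs *Gm25395* (0.96) and *Scarna6* (0.95). The genes most like *Rn7s6* were *Rps12* and *Gm25395* (0.94 each), those most like *Rn7sk* reached 0.91 (*Gpm6b*, *Srpx* and *Lhfpl6*) and the one most like *Terc* was *Cemip* (0.90).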

How the data were processed

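RNA from whole submandibular glands of 12 mice was converted by the authors into stranded, ribosomal RNA-depleted libraries from 100 ng of total RNA and sequenced as pairs of 100 bases. The authors quantified transcripts with Salmon 1.10.1 on Gencode M35 (GRCm39) and deposited estimated counts per gene, of which 78.7% are whole numbers, and a table of normalized values, treated here as a signal, whose normalization is not given in the sources used here. The labels name the molecule as polyA RNA, while the library protocol is one for total RNA.

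IDs were matched to Gencode M39 (55563 of 56065 found), and sequences and coordinates come from that GRCm39 annotation and genome. Estimated counts were rounded, and the rows of *Rmrp* and of *Terc* were summed. The test was edgeR 4.0.16 (R 4.3.3): filterByExpr, TMM, 1 mean per group over all 12 libraries, quasi-likelihood F test, and Benjamini-Hochberg adjustment over 17891 genes with a threshold of 0.05. Intervals are 95%. Ratios within a library were compared by exact two-sided permutation tests. Correlations used log2 CPM with a prior count of 2. The procedure was tested on simulated counts. Alternatives were other library sizes, no filter, DESeq2 1.42.0, the factors of the deposited normalized table, a replicate block, and each mouse left out.

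Named genes were all 6 members, copies of 7SL, up to 3 genes per list and direction with the smallest adjusted p in the female or male contrast, *Tert*, *Larp7*, *Srp54a* and *Pop1*, the 3 genes most like each member, and the 3 most abundant genes of each other RNA class. Some sequences are not reported here. The members and lists were chosen with earlier results of these data known. Libraries held 47032175 to 67882207 counts; intervals of counts (Wilson) and the floor of 3 counts cover counting error only, since PCR copies were not told apart. Depth was ample for all members but *Terc*. Each library comes from its own mouse, so the p-values measure the spread between mice. Tables were made with pandas 2.3.3 and numpy 2.4.6 and figures with matplotlib 3.10.9.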

Additional observations from a re-analysis of the deposited data

Results flagged for a closer look

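The effect of the knockout on *Rmrp* differed between females and males by the direct test of the interaction of genotype and sex, with a log2 value of −2.03 (SE 0.51; adjusted p = 0.0148, edgeR). *Rmrp* was lower in knockouts in females (−1.28) and its male value was 0.76, which did not pass on its own (adjusted p = 0.456). The groups hold 3 mice each, so no single mouse was tested as an outlier within a group.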

How the results depend on the processing

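Of 260 values under settings other than a mouse left out, 219 kept their direction and their side of the threshold or, for a count of genes called, stayed within 1.5 times, and of 336 with 1 mouse left out 308 did. The interaction of *Rmrp* was called under all of them. In females *Rn7s1* turned to 0.17 on total counts, 0.31 on protein-coding counts, 0.26 on total counts without 7SL (an alternative chosen after seeing the data) and 0.0877 with the authors' factors, *Rn7s6* to 0.13, 0.27 and 0.22 in the first 3, and *Rn7sk* to 0.37, 0.52 and 0.47 in those and to 0.14 on protein-coding counts without the top 20. Female *Rmrp* was not called at −0.83, −0.70 and −0.75 in those first 3. Female *Rpph1*, at 0.01, turned to −0.0218 with RLE factors and with DESeq2, −0.000765 with no filter, and −0.22 with the authors' factors. With the authors' factors *Rn7s1* turned to −0.76 in males, 0.84 in the interaction and 1.89 between the sexes, *Rn7s6* between the sexes lost its call (−2.07) and the interaction of *Rn7sk* gained one (−0.94). With DESeq2, which gave *Rn7s6* no adjusted p, calls were gained by the interactions of *Rn7s1* (−0.98) and *Rn7sk* (−0.74) and, between the sexes, by *Rn7sk* (−0.55) and *Terc* (−1.42). Between the sexes *Rn7sk* turned to 0.37 on total and 0.0366 on protein-coding counts, *Rmrp* to 0.10 on total counts, and *Rpph1* lost its call at −0.35, −0.66 and −0.70 in the same 3 settings. Genes called in males (42) were 25 on total counts, 15 on protein-coding counts, 14 without 7SL, 401 with no filter and 400 with DESeq2, and those between the sexes (6521) were 12415 on total counts. The cause of these changes was not tested.

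The replicate numbers do not pair the mice, since deviations of same-numbered libraries correlated at −0.114 to 0.051 in females and −0.135 to 0.090 in males. With the number as a replicate block the genes called were 6350 in females (6612 without), 44 in males (42), 4355 in the interaction (4602) and 6300 between the sexes (6521). Female *Rpph1* was −0.0636, and *Rn7sk* between the sexes gained a call at −0.53.

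With 1 mouse left out the female values ran from −1.56 to −0.96 (*Rmrp*), −0.43 to 0.0336 (*Rn7sk*), −0.30 to 0.17 (*Rpph1*) and −0.15 to 0.85 (*Terc*). The interaction ran from −1.34 to −0.69 (*Rn7s1*), −4.79 to −1.69 (*Rn7s6*), −1.05 to −0.58 (*Rn7sk*) and −1.29 to −0.50 (*Rpph1*), with calls gained without WT male 2 or, for *Rn7sk*, without knockout female 2. Between the sexes it ran from −6.12 to −3.01 (*Rn7s6*), −1.71 to −0.92 (*Rpph1*), −1.09 to −0.35 (*Rmrp*, called without WT male 2) and −1.85 to −0.87 (*Terc*, called without WT female 1). Genes called ran from 13 to 635 in males and 2382 to 5565 in the interaction. The lncRNA row of *Rmrp* or of *Terc* taken alone, also an alternative chosen after seeing the data, changed no call. Depth limits only *Terc*.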

Other observations

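The 7SL rows hold enough of each library to change what total counts measure. Without the 2 rows of 7SL in the library size, an alternative chosen after seeing the data, all 6 members were positive in the male comparison (median 0.87) and none was called. On total counts with 7SL kept the median was 0.70 and none was called. The count of genes called in males was 14 without 7SL and 25 with it.

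WT male 3 stood apart in another small RNA besides *Rn7s6*. *Rprl3*, a relative of *Rpph1* in the annotation that holds 4.50% of the 31-base words of *Rpph1*, had 4674 counts in WT male 3, 11 in WT male 2 and 1 to 7 in the other 10 libraries. It is named after its values were seen. *Rpph1* itself had its lowest share, 0.328%, in that library. This is the library with 7393 CPM of the sublingual acinar markers, nearly all *Muc19*, and the lowest *Rn7s6*.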
